A study of Microtus ochrogaster with 40 samples.

Results

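The nuclei described here are glutamate nuclei of the prairie vole nucleus accumbens dissection that carried RNA of Hs3st4 or Rxfp2. A nucleus was a member when it held at least 2 UMIs (counted RNA molecules) of Slc17a7, at least 2 UMIs of Hs3st4 and Rxfp2 summed, and none of DRD1A or DRD2. These measured values selected the members, so the levels of those 5 genes are not results. The rule kept 2770 of 185995 nuclei, which were 11.46% of the 24173 glutamate nuclei chosen by Slc17a7, DRD1A and DRD2 alone. Each of the 40 animals gave between 2 and 193 members, with a median of 57.5.

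Nuclear RNA was counted by droplet sequencing in 1 library per animal, from frozen accumbens punches. The 11 female mate and 11 male mate animals had lived 16 days with a partner of the opposite sex. The 8 female peer and 10 male peer animals had lived 16 days with a partner of the same sex. The labels give no allele, drug or age. They do not name partners either, so members of a housed pair could share influences that the tests do not model. The question put by the design is whether the kind of partner, or the sex, goes with a difference in these nuclei.

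Slc17a7 encodes the vesicular transporter that loads glutamate into synaptic vesicles and marks most excitatory neurons of the cortex. Neurons of the deepest cortical layers are known to send axons to the thalamus (layer 6) or to persist from the early subplate (layer 6b). Hs3st4 encodes a heparan sulfate sulfotransferase known from layer 6 neurons of rodents, and Rxfp2 a receptor for the relaxin family hormone Insl3. The accumbens itself consists mainly of GABA neurons. Nuclei of neighbouring cortex, claustrum or endopiriform tissue inside a punch cannot be told apart from nuclei of the accumbens in these data.

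Kept libraries held 1793 to 8204 nuclei and 3002288 to 14907749 UMIs. Male mate 2 stood apart: its kept nuclei had a median of 662 UMIs, its 76 members a median of 676, and 92.9% of its members with only 1 of the 2 genes had Rxfp2. Male peer 5 gave 17 glutamate nuclei and 2 members. Of the tests and the values per animal it entered only the share of all nuclei, while counts of nuclei and pooled levels took in every animal. Of the barcode sequences, 19903 occurred in 2 or more libraries, at most 1.53% of the smaller library for any pair of libraries, and 4 sequences were members in more than 1 library. Doublets were kept in the main results; 96 members (3.47%) scored as doublets, against 4.01% of the other glutamate nuclei.

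Most members carried Rxfp2. There were 1106 members with Rxfp2 and no Hs3st4, 1015 with both genes and 649 with Hs3st4 and no Rxfp2. Rxfp2 reached 33 UMIs in a nucleus and 1233 members held at least 5, whereas 489 of the 649 Hs3st4-only members held exactly 2 Hs3st4 UMIs. Among glutamate nuclei with at least 2 Rxfp2 UMIs, 44.1% also had an Hs3st4 UMI, compared with 12.8% of the glutamate nuclei without Rxfp2, at median depths of 2492 and 2366 UMIs. Median depth was 3023 UMIs in the Hs3st4-only, 2716 in the double and 2322 in the Rxfp2-only members.

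**Figure D1:**
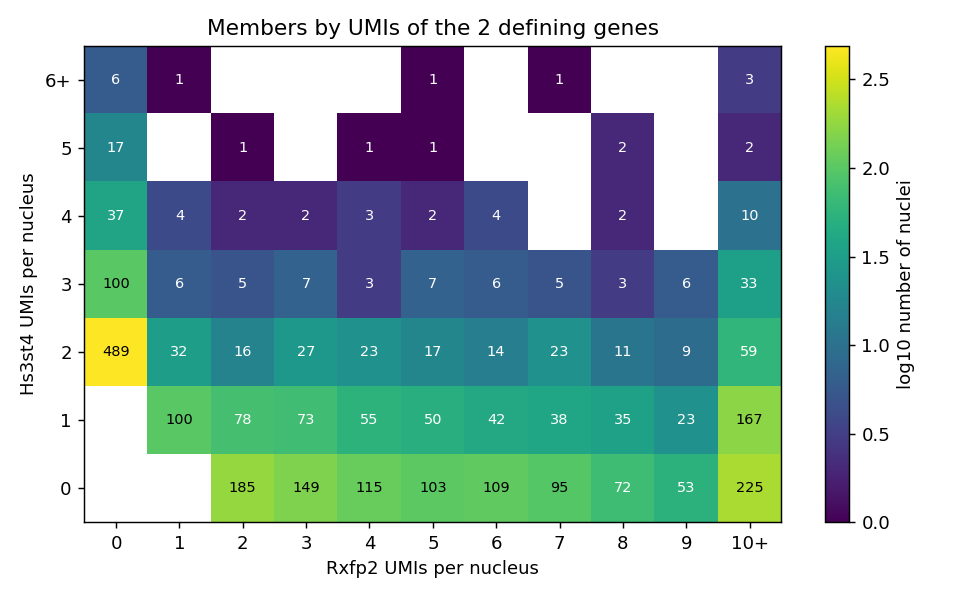
Number of members by UMIs of Rxfp2 (horizontal) and Hs3st4 (vertical), with the count written in each cell and colour on a log10 scale; the last row and column hold 6 or more and 10 or more UMIs. The 489 nuclei with 2 Hs3st4 UMIs and no Rxfp2 form the fullest cell, while the Rxfp2 counts spread along the whole axis.

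Free RNA was read from oligodendrocyte nuclei, which should lack both genes. These were 10201 nuclei with 5 or more UMIs of Mbp and Mog and none of Slc17a7, Gad1 or Gad2 (median 685 UMIs). Of them, 0.363% had an Hs3st4 UMI and 0.147% an Rxfp2 UMI, against 15.7% and 10.0% of the glutamate nuclei (median 2375 UMIs). With all nuclei thinned to 1000 UMIs, the shares were 0.359% and 0.0513% in the 1951 oligodendrocyte nuclei deep enough, and 7.60% and 8.93% in the 20667 glutamate nuclei. The share of glutamate nuclei with Rxfp2 was thus above this background at matched depth. Oligodendrocyte nuclei with a Slc17a7 UMI were left out, so the background may be too low for free RNA of glutamate neurons. That was not tested.

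The label is described here on genes the rule did not use. The marker lists were chosen with earlier results of these data known, so high levels of their genes are no independent check. Values are CPM, a gene's UMIs relative to all UMIs summed over the members of an animal, over the 37 animals with at least 20 members. A fold is the ratio of means after adding 5 CPM to both. Pooled levels instead sum the UMIs of a class over all 40 animals, so animals with more UMIs weigh more, and no spread is given. Because the members were chosen by Hs3st4 and Rxfp2 in the same nuclei, these levels are descriptions without a test. Ccn2, a secreted matricellular protein known from layer 6b and the subplate, ran from 154 to 830 CPM in members (median 350.5) and from 16.4 to 84.5 CPM in the other glutamate nuclei, 8.22-fold higher. No animal's members fell within the range of the other glutamate nuclei. Nxph4, a neurexophilin that binds neurexins, ran from 49.0 to 374 CPM in members and from 1.30 to 38.4 CPM in the others, 7.23-fold higher. Nxph3, a second neurexophilin, averaged 296 ± 75.2 CPM (SD, n = 37) against 62.3 ± 26.3 CPM. Prss12, a secreted serine protease of synapses, averaged 286 ± 99.97 CPM against 62.4 ± 28.6 CPM. Each of these 4 markers was higher in members in 37 of 37 animals, as was Cplx3, a complexin of vesicle release (70.5 ± 45.2 CPM against 6.19 ± 3.50 CPM).

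**Figure D2:**
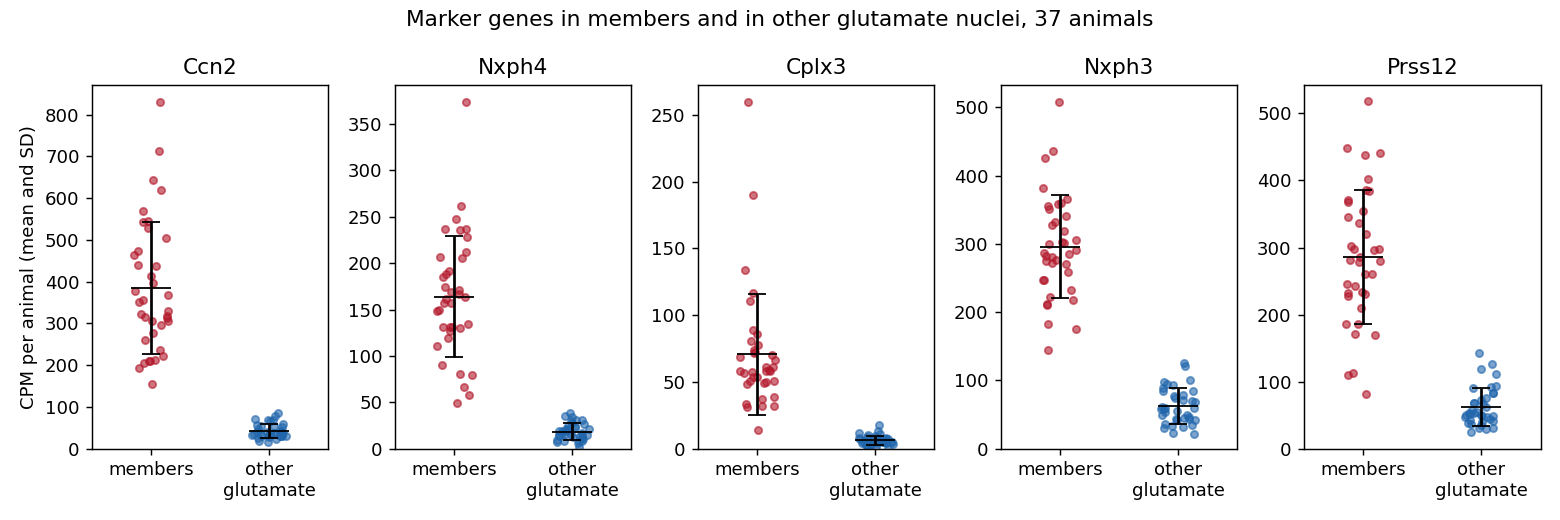
CPM of 5 genes per animal in members (red) and in other glutamate nuclei (blue), 37 animals; bars are the mean and SD. For Ccn2 the lowest member value, 154 CPM, lies above the highest value of the other glutamate nuclei, 84.5 CPM.

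Genes of layer 6 corticothalamic neurons were mostly higher in members as well. Of the 11 listed, 10 had a higher mean in members and 5 were at least 2-fold higher, with a median log2 ratio of 1.00 where that of all genes was -0.01. The median of all genes took in every gene with a UMI in either class. For genes near 0 CPM the added 5 CPM holds the ratio near 0, so the 2 medians are not matched for level. Syt6, a synaptotagmin, averaged 193 ± 42.3 CPM against 63.3 ± 29.6 CPM. Tle4, a transcriptional corepressor, averaged 71.1 ± 22.6 CPM against 21.6 ± 8.23 CPM. Fezf2, a transcription factor of deep-layer projection neurons, averaged 142.5 ± 42.5 CPM against 70.8 ± 28.1 CPM. Crym, a thyroid hormone binding protein, was 98.1 CPM in members and 99.0 CPM in the others.

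Not all layer 6b genes were high. Of 10 described, 5 had a higher and 5 a lower mean in members, with Moxd1 at 3.07 CPM and Trh at 0.63 CPM. The transcription factor Nr4a2, which layer 6b shares with claustrum, averaged 133.5 CPM in members and 163 CPM in the others. Of 9 claustrum genes described, 2 had a higher and 6 a lower mean in members, and Car3 had no UMI in members or in the other glutamate nuclei. None was abundant enough to be tested between the subsets of members, and their pooled levels differed from gene to gene. Ntng2, a netrin-G protein, was pooled at 122 CPM in Hs3st4-only, 5.34 CPM in double and 5.44 CPM in Rxfp2-only members, and Lxn, a carboxypeptidase inhibitor, at 101 CPM, 6.82 CPM and 6.53 CPM. Nr4a2 (241 CPM, 80.4 CPM and 75.5 CPM), Synpr (48.2 CPM, 8.30 CPM and 7.98 CPM) and Oprk1 (24.45 CPM, 4.15 CPM and 4.72 CPM) were also highest in Hs3st4-only members. Cdh24, a cadherin, ran the other way, at 18.2 CPM, 102 CPM and 115 CPM. Glutamate nuclei with no UMI of Hs3st4 or Rxfp2 had 114 CPM of Ntng2, 49.4 CPM of Lxn and 11.5 CPM of Cdh24. Gnb4, a G protein beta subunit, was at 97.8 CPM, 73.2 CPM and 84.2 CPM in the 3 subsets, and Rgs14 at 8.04 CPM, 5.64 CPM and 8.34 CPM.

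Genes of upper cortical layers were low in members. Of 9, 8 were at least 2-fold lower than in the other glutamate nuclei. SLC30A3, the transporter of synaptic vesicle zinc, was 23.5 ± 20.9 CPM against 165.5 ± 41.0 CPM. Cux2, a transcription factor of upper layers, was 13.5 ± 13.1 CPM against 68.7 ± 21.0 CPM, and Lamp5 was 63.1 ± 36.7 CPM against 228 ± 54.7 CPM. The exception was Whrn, a scaffold protein, at 266.5 ± 80.2 CPM against 115 ± 31.8 CPM. The 8 lower genes were each pooled highest in Hs3st4-only members, and Whrn was lowest there. Lamp5 was at 133 CPM in Hs3st4-only, 34.4 CPM in double and 32.3 CPM in Rxfp2-only members. In the same order Cux1 was at 94.0 CPM, 43.0 CPM and 45.0 CPM. Glutamate nuclei with no UMI of Hs3st4 or Rxfp2 had 250 CPM of Lamp5 and 137 CPM of Cux1.

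Across all genes with at least 50 CPM in either class, 75 of 5608 (1.34%) were at least 2-fold higher in members and 121 (2.16%) at least 2-fold lower. The 15 with the highest ratio included, beside the markers, Col5a1, a fibrillar collagen chain (522 ± 315 CPM against 90.1 ± 33.5 CPM), Ptprb, a receptor tyrosine phosphatase (351 ± 98.6 CPM against 63.4 ± 23.6 CPM), Vwc2, Nkain4, Cdh24, Rai14, Adamts18, Thsd7b, Arhgap6 and Sema5b, a transmembrane semaphorin. Of these 15 genes 13 were higher in members in every animal, Arhgap6 in 36 and Cdh24 in 35 of 37. The lowest ratio belonged to Ndst4, another enzyme of heparan sulfate modification, at 5.68 ± 10.7 CPM against 152 ± 111 CPM. It was followed by C1ql3, a synaptic organizer (46.4 ± 33.5 CPM against 324 ± 87.1 CPM), and Cnr1, the cannabinoid receptor (60.8 ± 34.8 CPM against 336 ± 72.8 CPM), was also among the 15. The neuropeptide Cck was 205 ± 176 CPM against 962 ± 241 CPM. All 15 of the lower genes were lower in members in 37 of 37 animals.

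Heparan sulfate enzymes did not share one pattern beyond Hs3st4. Of the other 22 enzymes, 12 had a higher and 10 a lower mean in members, 2 at least 2-fold higher and 3 at least 2-fold lower. Sulf2 and Sulf1, which remove sulfate groups outside the cell, were higher, at 121 ± 30.4 CPM against 54.2 ± 17.7 CPM and 111 ± 34.8 CPM against 42.9 ± 18.2 CPM. Ndst3 was 48.1 ± 26.2 CPM against 152 ± 45.0 CPM and Hs3st1 14.5 ± 12.0 CPM against 61.4 ± 23.8 CPM. The relaxin receptor Rxfp1 was 36.4 ± 29.5 CPM in members and 49.7 ± 20.5 CPM in the others. The Rxfp2 ligand Insl3 was 0.05 CPM in members, and no UMI of Rln1 or Rln3 was found in them.

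Of 20 receptors known from social bonding, 8 had a higher and 12 a lower mean in members, and 7 were at least 2-fold lower. The 2.16% of all genes that were 2-fold lower was counted with a floor of 50 CPM, which this list did not have. Some of the 7 were near 0: members had no UMI of OXTR in 33 and none of Crhr2 in 30 of 37 animals. OXTR, the oxytocin receptor, was 0.54 ± 1.75 CPM in members and 6.38 ± 3.52 CPM in the other glutamate nuclei. Crhr1, a receptor for corticotropin-releasing factor, was 4.72 ± 5.79 CPM against 29.0 ± 7.97 CPM. Htr2a, a serotonin receptor, was 122 ± 47.3 CPM against 117 ± 28.1 CPM. Among inhibitory receptors Gabra5 was 355 ± 76.8 CPM against 192 ± 27.3 CPM and higher in 37 of 37 animals, while Gabra4 was 88.2 ± 36.6 CPM against 255 ± 37.7 CPM and higher in none. Of 29 potassium channel genes 24 had a lower mean in members, 4 of them at least 2-fold, with a median log2 ratio of -0.315. The median of all genes, -0.01, takes in genes near 0 CPM and is not matched for level. The share of all genes with a lower mean was not counted, so nothing is read from the 24.

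Summed marker lists of 4 other cell types had lower means in members than in all other nuclei, though 1 astrocyte gene did not. The spiny neuron list without DRD1A and DRD2 (12 genes) summed to 570 ± 123 CPM in members, 679 ± 98.6 CPM in other glutamate nuclei and 6349 ± 1408 CPM in all other nuclei. The interneuron list summed to 283 ± 215 CPM in members and 2346 ± 341 CPM in all other nuclei, the oligodendrocyte list (6 genes) to 166 ± 157.5 CPM and 903 ± 274 CPM. The astrocyte list summed to 1727 ± 256 CPM in members, above the 996 ± 176 CPM of other glutamate nuclei and below the 2627 ± 521 CPM of all other nuclei. In that list only Slc1a2, the glutamate transporter, was higher in members than in other glutamate nuclei (1547 ± 250.3 CPM against 684 ± 133 CPM). It was above the 1036 ± 182 CPM of all other nuclei as well. The astrocyte genes Slc1a3 and Gja1 were 61.1 CPM and 25.1 CPM in members, 103 CPM and 43.7 CPM in other glutamate nuclei and 542 CPM and 288 CPM in all other nuclei.

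Nuclei just outside and just inside the threshold had intermediate pooled levels. Glutamate nuclei with 1 UMI of the 2 genes (2424 nuclei) had 91.9 CPM of Ccn2 and 144 CPM of Nxph3, members with 2 UMIs (774 nuclei) 149 CPM and 239 CPM, and glutamate nuclei with none 32.9 CPM and 47.6 CPM. The makeup of these steps differed: of the nuclei with 1 UMI, 2126 held Hs3st4 and 298 Rxfp2, and of those with 2 UMIs, 589 held Hs3st4 and 285 Rxfp2, some both. Since Ccn2 was pooled at 122 CPM in Hs3st4-only and 471 CPM in Rxfp2-only members, the number of UMIs and the gene counted cannot be told apart in these values. A further 502 nuclei met every condition except that they held DRD1A UMIs and no DRD2. They had 567 CPM of Ccn2, 215 CPM of Nxph4 and 113 CPM of Cplx3, and 390 of them held a single DRD1A UMI. Hs3st4 was held by 356 of them and Rxfp2 by 340, some holding both. The pooled level of Prss12 was 206 CPM there, 387 CPM in Rxfp2-only and 109 CPM in Hs3st4-only members. In the same order Col5a1 was at 166 CPM, 724.5 CPM and 191 CPM. Over all members the 2 genes averaged 286 CPM and 522 CPM. The nuclei with DRD1A were also deeper (median 3506.5 UMIs against 2601.5 in members). More of them held a UMI of Gad1 or Gad2 (23.7% against 13.4%) and of Mbp or Mog (22.3% against 13.1%). The spiny neuron peptides Tac1 and Pdyn were at 79.95 CPM and 16.7 CPM, where members averaged 24.95 CPM and 4.78 CPM. DRD1A is on both the layer 6b and the spiny neuron list, and the part of other cells' RNA in these nuclei was not tested.

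Members were then compared with each other. Rxfp2-only and Hs3st4-only members of the same animal were set against each other in 29 animals with at least 10 of each, by edgeR's quasi-likelihood test with the animal as a block. The 2 genes that formed the subsets are left out of all counts. Slc17a7, which the rule also used, stayed among the genes tested. Of 1806 genes, 547 (30.3%) were called higher in Rxfp2-only and 535 (29.6%) higher in Hs3st4-only members, where a call is an adjusted p under 0.05. The subsets were cut by the same UMIs that chose the members, so the differences describe the subsets and the calls support nothing further. Most Hs3st4-only members sat exactly at the threshold of 2 UMIs. For several genes their pooled level was near that of glutamate nuclei with no UMI of either gene: Nrgn was at 919 CPM and 930 CPM, Arc at 468 CPM and 437 CPM. For Prss12, a deep-layer marker, it lay between, at 109 CPM, with 50.5 CPM in nuclei with no UMI of either gene and 387 CPM in Rxfp2-only members. Other genes were nearer to the Rxfp2-only level. Syt6 was at 177 CPM, with 46.7 CPM in nuclei with no UMI and 215 CPM in Rxfp2-only members. In the same order, Tle4 was at 59.0 CPM, 17.3 CPM and 70.8 CPM, and Ndst4 at 11.2 CPM, 186 CPM and 2.90 CPM.

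Deep-layer markers were higher in the Rxfp2-only members. Ccn2 ran from 60.7 to 1011 CPM there (median 469.5) and from 0 to 475 CPM in the Hs3st4-only members (median 85.0), and it was higher in 29 of 29 animals (log2 fold change 2.17, SE 0.16). The 2 ranges overlapped although every animal moved the same way. Prss12 averaged 405 ± 128 CPM against 113 ± 70.7 CPM (log2 fold change 1.80). Nxph3 averaged 342 ± 87.9 CPM against 186 ± 66.9 CPM and was higher in 27 of 29 animals (log2 fold change 0.83). All 3 of the deep markers that could be tested were called in this direction, as were 30.3% of all genes tested. Nxph4 and Cplx3 were too low to be tested, with pooled levels of 65.7 CPM and 32.8 CPM in Hs3st4-only, 254 CPM and 102 CPM in double and 190.1 CPM and 73.7 CPM in Rxfp2-only members. The pooled levels of the double members were nearer to those of the Rxfp2-only members for all 5 genes.

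The other genes with the largest differences toward Rxfp2-only were Ptprb (log2 fold change 1.81), Col5a1 (1.68), Cdh13, a cadherin without a cytoplasmic domain (1.41), Magi2 (1.40), Xkr6 (1.35), Csmd3 (1.32), Sdk2, an adhesion molecule (1.25), and Rai14 (1.25). Col5a1 was higher in 27 and Csmd3 in 29 of 29 animals. Whrn (1.14) and Nrp2, a semaphorin receptor (1.15), were called in the same direction.

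Among the genes higher in the Hs3st4-only members were Nrn1, Nrgn, Chgb and Arc. Nrn1, the neuritin gene, averaged 263 ± 148.5 CPM there against 32.0 ± 32.4 CPM in Rxfp2-only members, higher in 29 of 29 animals (log2 fold change of Rxfp2-only minus Hs3st4-only -2.73, SE 0.19). Nrgn, a calmodulin-binding protein of dendrites, averaged 859 ± 444 CPM against 248 ± 200.4 CPM (-1.83). Cck averaged 468 ± 325 CPM against 112 ± 144 CPM (-2.11). Cplx2 (-2.03), Sparcl1 (-1.82), Nefl, a neurofilament subunit (-1.56), Chgb, a granin of secretory granules (-1.53), Camk2n1 (-1.52) and Nell2 (-1.50) followed. Of 10 immediate early genes 2 could be tested and both were called, Arc at -1.51 and Egr1 at -1.05, where 29.6% of all genes tested were called in this direction. Of the others, Nr4a3 had the higher pooled level in Rxfp2-only members (80.2 CPM against 64.6 CPM) and Npas4 was at 166 CPM against 173 CPM. Pooled levels of Fos (51.5 CPM against 92.9 CPM), Egr3 (31.9 CPM against 97.8 CPM), Nr4a1 (86.4 CPM against 125 CPM), Fosb, Junb and Homer1 were lower in Rxfp2-only members. Of 12 forebrain glutamate genes 4 could be tested, 1 of them Slc17a7, which the rule used and which was not called. Nrgn, Camk2a (-0.98) and Tbr1 were called toward Hs3st4-only, beside the same 29.6%. With so few genes tested, nothing is read from either count. Pooled levels of Slc17a6 (92.5 CPM against 67.8 CPM), Neurod2 (47.5 CPM against 35.3 CPM) and Ccn3 (139 CPM against 107 CPM) were higher in Rxfp2-only members.

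**Figure D3:**
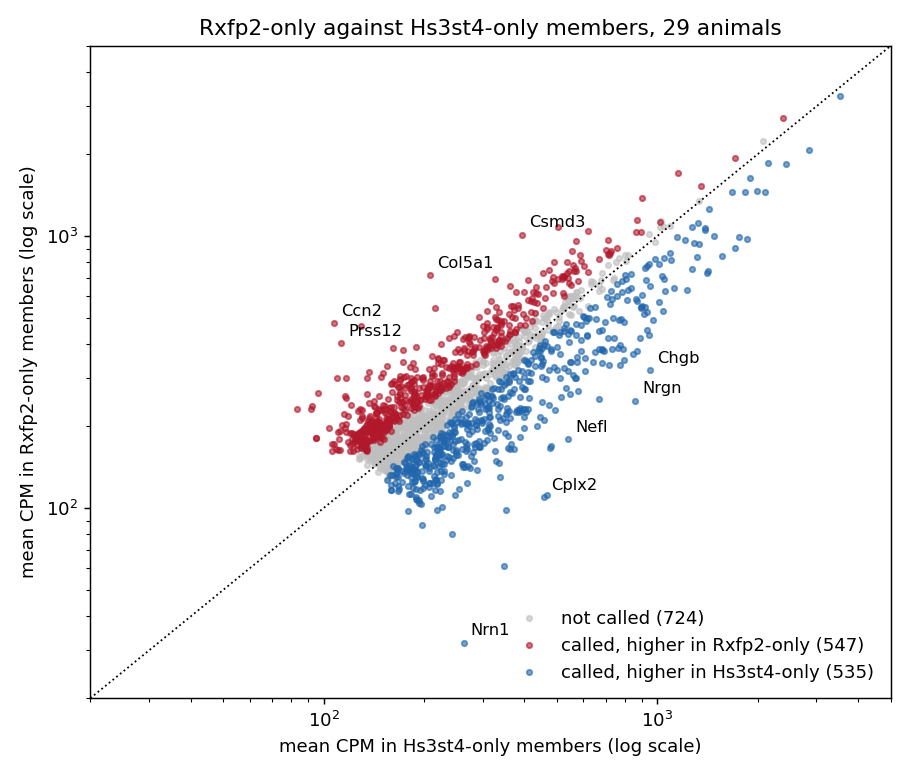
Mean CPM of 1806 genes in Hs3st4-only (horizontal) and Rxfp2-only members (vertical) of 29 animals, both axes on a log scale, with equality as a dotted line. Of the called genes 547 lie on the Rxfp2-only side (red) and 535 on the Hs3st4-only side (blue), and 724 were not called (grey).

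Of 13 inhibitory and excitatory receptor genes tested, 5 were called higher in Rxfp2-only and 4 in Hs3st4-only members, near the 30.3% and 29.6% of all genes. Gabra5 averaged 426 ± 103 CPM in Rxfp2-only against 266 ± 92.9 CPM (log2 fold change 0.63) and Gabrb1 504 ± 128 CPM against 325.5 ± 120 CPM (0.56). Gria2 was called at only 0.15. It was not called without the low count filter, with 20 members per subset or after thinning, and it was -0.01 in nuclei free of the GABA and glial genes below. Of 9 potassium channel genes 2 were higher in Rxfp2-only, Kcnn3 (0.93) and Kcna4 (0.56), and 5 in Hs3st4-only, among them Kcna2 (-0.81) and Kcnn2 (-0.65), beside the same shares of all genes; with 9 genes nothing is read from these counts. Of the 11 listed corticothalamic genes 2 could be tested, Tbr1 at -0.31 and Syt6, not called, at 0.26. Tbr1 was not called with called doublets left out (-0.25) or in nuclei free of the GABA and glial genes (-0.36).

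Markers of other cells were not equal in the subsets. The interneuron list summed to 440 ± 393 CPM in Hs3st4-only and 192 ± 144 CPM in Rxfp2-only members and was higher in the former in 23 of 29 animals. The oligodendrocyte list summed to 201 ± 251 CPM against 118 ± 107 CPM, higher in 17 of 29, and the astrocyte list to 1341 ± 319 CPM against 1870 ± 489 CPM. In members without any UMI of 7 GABA and glial genes (Gad1, Gad2, Mbp, Mog, Slc1a3, Gja1 and Aqp4; chosen after seeing the data), 16 animals and 1325 genes remained, with 202 calls toward Rxfp2-only and 239 toward Hs3st4-only. Of the calls above that could be tested there, 789 of 804 kept their direction and 430 were still called. When members were thinned to 1000 UMIs, 291 genes remained, with 63 and 72 calls, and of 211 earlier calls 208 kept their direction and 131 were still called.

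No difference by partner or sex in the share of members among glutamate nuclei passed the test. The share averaged 12.9% ± 5.50 (SD, n = 11) in female mate, 10.5% ± 4.67 (n = 8) in female peer, 12.2% ± 5.63 (n = 11) in male mate and 12.5% ± 6.37 (n = 9) in male peer animals. The lowest animal was female peer 2 at 4.57% and the highest male peer 3 at 23.9%, and all 4 groups overlapped. Mate minus peer was 1.07 percentage points (95% interval -2.53 to 4.67, permutation p 0.549, adjusted 0.857 over 9 share tests). Female minus male was -0.68 points (-4.33 to 2.98, permutation p 0.707). Fewer members and more of the other glutamate nuclei cannot be told apart in such a share.

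As a share of all nuclei members were 1.504% ± 0.79 (SD, n = 40), from 0.0445% in male peer 5 to 3.26% in male peer 7, with a mate minus peer difference of 0.03 points (-0.47 to 0.54, permutation p 0.891). The share of Rxfp2-only among members with a single gene was 61.9% ± 14.4 (SD, n = 34), from 28.6% in female peer 2 to 92.9% in male mate 2. It was 57.7% ± 15.0 in females and 65.6% ± 13.2 in males. Averaged over the partner types, female minus male was -7.95 points (-17.9 to 1.96, permutation p 0.114, adjusted 0.857). Without male mate 2 that difference was -6.39 points. When every nucleus was thinned to 1000 UMIs it was 5.73 points, over only the 15 animals that still had 20 single-gene members, so that value and the one over 34 animals come from different sets of animals. Thinning itself moved the makeup: 93 Hs3st4-only, 260 double and 728 Rxfp2-only members remained, and members were 7.29% of the 14821 glutamate nuclei. The 62577 nuclei under 1000 UMIs, left out by thinning, numbered 17037 in female mate, 11152 in female peer, 20410 in male mate and 13978 in male peer animals.

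**Figure D4:**
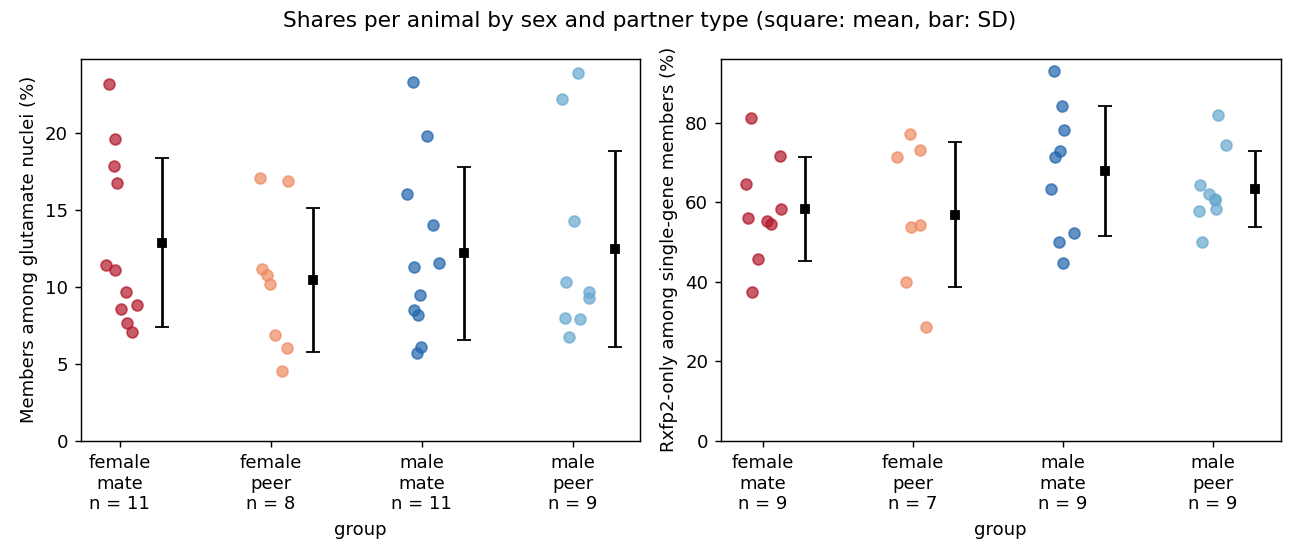
Share of members among glutamate nuclei (left) and of Rxfp2-only among single-gene members (right), 1 point per animal in 4 groups, with the mean (square) and SD. On the left the groups overlap, and single animals run from 4.57% to 23.9%. On the right the highest point, 92.9%, is male mate 2.

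Across animals, no relation passed the test between the member share of glutamate nuclei and their median depth (Pearson r 0.18, permutation p 0.282, Spearman rho 0.19, permutation p 0.24, n = 39; r 0.02 without the 2 animals farthest in depth). Within groups r was -0.17 in female mate, 0.78 in female peer, 0.29 in male mate and -0.04 in male peer animals, with no test within groups. Rxfp2-only and Hs3st4-only shares gave r 0.25 (p 0.132) and rho 0.23 (p 0.154), and r 0.24 without 2 animals, by permutation, with r from 0.05 to 0.55 within groups. Member and other glutamate shares of all nuclei gave r 0.30 (p 0.0601) and rho 0.34 (p 0.0361, adjusted 0.108 over 3 relations), and r 0.31 without 2 animals, by permutation, with r from -0.01 to 0.47 within groups.

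Expression in members was compared between the groups in 37 animals (10 female mate, 7 female peer, 11 male mate, 9 male peer) over 6884 genes. No gene was called for partner type by edgeR (0, percent called 0), where 258 had an unadjusted p under 0.05 and DESeq2 called 0. For sex edgeR called 0 (percent called 0) with 251 under 0.05, and DESeq2 called 1. For the difference of the partner effect between the sexes edgeR called 0 (percent called 0) with 185 under 0.05, and DESeq2 called 0. Each count of unadjusted p under 0.05 was below the number that chance alone gives at that threshold. In simulated counts, 60.5% of genes changed 1.5-fold and 96.5% of those changed 2-fold were found for partner type among 6884 genes. The simulation drew each gene independently, so recovery in the real counts may be lower. It also changed 200 genes at once, which lowers the adjusted p-values, so a few changed genes would be harder to find. In the real counts the log2 fold changes for partner type ran from -0.884 to 1.7 with no call. Changes of 2-fold or more are therefore not excluded.

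None of the 4 deep-layer markers that the rule did not use was called between mates and peers. Ccn2 averaged 385 CPM in mate and 386 CPM in peer animals (log2 fold change -0.02, SE 0.17). Nxph3 averaged 288 CPM and 306 CPM (-0.09, SE 0.12), Nxph4 160 CPM and 169.5 CPM (-0.12, SE 0.16), and Prss12 275 CPM and 301 CPM (-0.14, SE 0.16). Of the 3 bonding receptors tested none was called: Htr2a was 136 CPM in mate and 105 CPM in peer animals (0.33, edgeR unadjusted p 0.0456, adjusted 1.00). Of 7 immediate early genes 3 were higher and 4 lower in mates and none was called, with log2 fold changes from -0.26 to 0.20, and their median was -0.14 where that of all genes was -0.01. For female minus male all 7 values were positive, from 0.06 to 0.39, and none was called.

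The lowest p for partner type belonged to Zpr1, a zinc finger protein, with 19.3 to 66.8 CPM in mates (median 46.2) and 42.3 to 129 CPM in peers (median 71.9), overlapping (log2 fold change -0.58, SE 0.14, edgeR adjusted p 1.00). Sst, the somatostatin of interneurons, had 0 to 444 CPM in mates and 0 to 108 CPM in peers (1.70, edgeR adjusted p 1.00). The value was 2.82 with at least 3 UMIs of the 2 defining genes (edgeR adjusted p 0.0558), 2.87 with at least 50 members per animal (0.228) and 1.31 with called doublets left out (1.00), and it was called under no alternative run. The interneuron list summed to 72.6 to 998 CPM in mates and 80.2 to 627 CPM in peers; its part in the Sst value was not tested. Emc3 of the endoplasmic reticulum membrane complex averaged 103 CPM in mates and 132 CPM in peers (-0.37, adjusted p 1.00).

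For sex the lowest p was that of Kdm5c, a histone demethylase encoded on the X chromosome of rodents. It ran from 171 to 280 CPM in females (median 212.5) and from 121 to 240.1 CPM in males (median 155), so the sexes overlapped (log2 fold change female minus male 0.45, SE 0.09, edgeR adjusted p 0.0659). It passed the threshold in DESeq2 (0.46), with at least 3 UMIs of the 2 defining genes (0.60) and without male mate 2 (0.46). It did not pass in the other 5 alternatives run, and over all 8 its adjusted p ran from 0.00572 to 0.869, the highest with at least 50 members per animal. Sertm1 averaged 77.8 CPM in females and 47.9 CPM in males (0.68, edgeR adjusted p 0.0954) and Rab9b 35.9 CPM and 53.8 CPM (-0.66, adjusted p 0.481). For the interaction of sex with partner type, Rnf31 (-0.98), Galnt10 (1.99) and Cacna1g (-1.64), a T-type calcium channel, had the lowest p, each with an edgeR adjusted p of 1.00.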

How the data were processed

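The authors deposited UMI counts without normalization, made with Cell Ranger 3.1.0 per the submitters' processing notes; the genome build is not given in the sources used here. A barcode was kept if it had 500 UMIs or more and if 13 mitochondrial genes took no more than 5% of them. Counts were summed over the members of an animal, since animals and not nuclei are the replicates. Group differences were tested with edgeR 4.0.16 in R 4.3.3 (quasi-likelihood, TMM, low counts filtered, animals with at least 20 members), with DESeq2 1.42.0 as an alternative; shares with two-sided permutation tests (100000 resamples). Adjusted p-values are Benjamini-Hochberg over all genes tested. The tests were tried on simulated data. Doublets were scored against simulated ones at 0.8% per 1000 barcodes. Of 290 genes on 23 lists, 275 were used and 15 not used here. A further listed gene is not reported here. Named genes are those of the lists, the 15 largest ratios each way, the 10 largest called differences each way between subsets, and the 3 lowest p otherwise; 3807 genes listed by an identifier alone are not named. Members and lists were chosen with earlier results of these data known. Free RNA, doublets and depth bear on single UMIs.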

Additional observations from a re-analysis of the deposited data

Results flagged for a closer look

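In a search of 50 sets of animals, 3 held an animal far from the others of its group; about 5% of sets are marked by chance. Among the 10 female mates with at least 20 members, the median depth of members was 3876 UMIs in female mate 6, above 2957.5 UMIs in the next animal. Female mate 1, with 19 members, was outside that set and had a median of 3379 UMIs. Kdm5c was 206 CPM in male peer 3, from 46 UMIs in 91 members, above 163 CPM in the next male peer. Sst was 108 CPM in female peer 2, from 29 UMIs in 44 members, above 14.0 CPM in the next female peer.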

How the results depend on the processing

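No share test passed its threshold under any alternative run, and the values below changed sign. With at least 1000 UMIs per nucleus, the partner difference in the share of all nuclei was -0.00955 points and the interaction in the Rxfp2 share 0.952 points. With nuclei thinned to 1000 UMIs, the interaction in the share of all nuclei was -0.0442 points, the partner difference in the Rxfp2 share -0.142 points and the sex difference 5.73 points, the last 2 over 15 animals in place of 34, where the sex difference was -7.95 points. With at least 3 UMIs of the 2 genes, the partner difference in the share of all nuclei was -0.0163 points and the interaction in the Rxfp2 share 0.413 points. That interaction was 0.158 points without male mate 2. Female peer 1, the only other animal left out in turn, had too few single-gene members to enter it, so the value without it is the full one, -2.98 points.

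The count for sex was 1 (Kdm5c) with DESeq2, with at least 3 UMIs and without male mate 2, against 0. Between the subsets, no filter on low counts gave 1117 and 1433 calls toward Rxfp2-only and Hs3st4-only, thinning 63 and 72, and leaving out members with UMIs of 7 GABA or glial genes, chosen after seeing the data, 202 and 239; fewer genes were tested in the last 2. Without the replicate block the counts were 534 and 537, and DESeq2 gave 515 and 506. Male mate 2 had 4 Hs3st4-only members and never entered that comparison. Gria2 was -0.00789 when members with UMIs of the 7 GABA or glial genes were left out, where it had been 0.15. The cause was not tested.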
